A study of Xenopus tropicalis with 26 samples.

Results

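A set of 138 features of the western clawed frog Xenopus tropicalis took reads in embryo RNA-seq and almost none in whole transcriptome target sequencing (WTTS), a method that counts transcripts by their polyadenylated 3' ends. They were chosen from a table of 27836 features by their levels in CPM, counts scaled to a common library total. A feature was kept when its mean was at least 10 CPM over the 6 embryo RNA-seq libraries, at most 1 CPM over the 10 embryo WTTS libraries and at most 1 CPM over adult WTTS trials 6 and 7. Of 9278 features with at least 10 CPM in embryo RNA-seq, 155 met the embryo WTTS limit and 138 met both limits, so the selected features are 1.49% of the features with that RNA-seq level. The contrast between the methods chose these features and is given as a description, with no test.

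The libraries came from 2 families of embryos, pooled at cleavage (stage 6), blastula (stage 8), gastrula (stage 11), neurula (stage 15) and tailbud (stage 28) for WTTS, and at the earliest 3 of these for RNA-seq, and from whole adult bodies. The stage names are those usual for Xenopus, as the labels give numbers alone. One RNA pool of 3 male and 3 female adult frogs gave 7 WTTS trials and 1 RNA-seq library, and 1 adult female gave 2 technical repeats of WTTS. No treatment, mutant or strain is given in the labels, nor the instrument of each library, so the contrast between methods includes any difference between instruments.

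Most messenger RNAs end in a poly(A) tail added after cleavage of the transcript. The mRNAs of replication-dependent histones end in a stem-loop instead, and many small nuclear and other noncoding RNAs carry no tail. In eggs and early embryos of Xenopus, tails of stored maternal mRNAs are lengthened or removed in the cytoplasm, and transcription of the embryo's own genome begins in earnest around the mid-blastula transition. The table names features by identifier, scaffold and position without gene names, and no identifier was found in the reference gene table, so none of the 138 features could be assigned to these classes and no role is given for any of them. A scaffold is a stretch of joined genome sequence, and the table's scaffolds range from those with a single feature to one with 3592.

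RNA-seq libraries of embryos held 110710673 to 131001449 counts and embryo WTTS libraries 1536128 to 6276132. The selected features took 0.358% to 0.388% of the counts of each embryo RNA-seq library and 0.431% of the adult RNA-seq library. They took between 0.00314% and 0.00786% of the counts of the embryo WTTS libraries.

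The low WTTS level was a level near the limit of counting, not a complete absence of reads. Over all 10 embryo WTTS libraries, with 34748253 counts together, the selected features had a median of 11 counts and at most 40, whereas 10 CPM would have given 347 counts. In these libraries 9 features had 0 counts, which allows up to 0.0863 CPM, and 4 features had 0 counts in all 19 WTTS libraries. Those 4 were XLOC_004881, XLOC_017460, XLOC_022449 and XLOC_004747, at means of 30.8, 24.7, 12.02 and 11.4 CPM in embryo RNA-seq. Limits of this kind cover counting error only. Where some WTTS reads fell, the RNA-seq mean was a median of 62.9 times the WTTS mean, and 10.6 times at the lowest. No selected feature reached 5 CPM in any single embryo WTTS library.

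**Figure D1:**
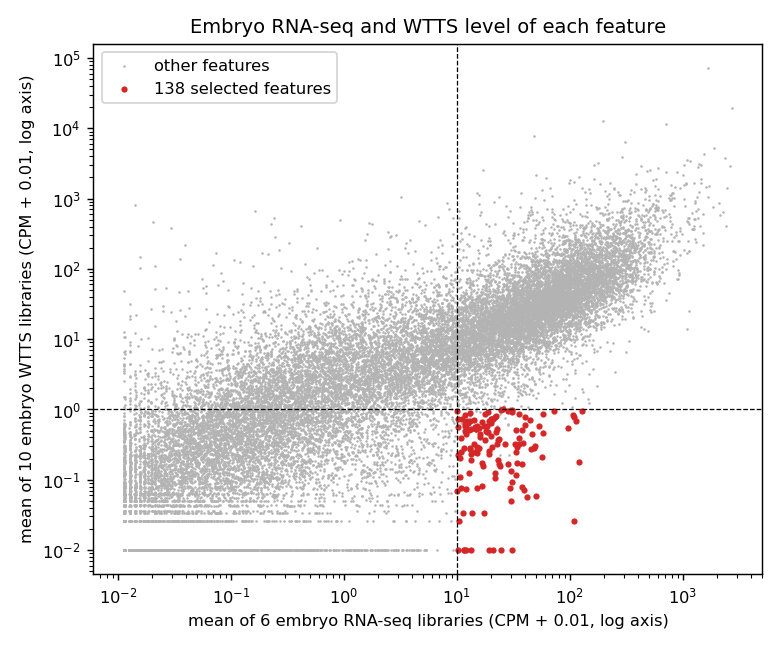
Each point is a feature, with its mean over 6 embryo RNA-seq libraries on the x axis and over 10 embryo WTTS libraries on the y axis, both in CPM + 0.01 on log axes. Dashed lines mark 10 and 1 CPM, and the 138 selected features in red lie between 10.0 and 129 CPM in RNA-seq, below the main cloud and without a gap to features outside the limits.

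The limits cut through a continuous range. The selected feature nearest the RNA-seq limit, XLOC_014974, had a mean of 10.04 CPM, and the nearest one outside, XLOC_009343, had 9.99 CPM. At the embryo WTTS limit XLOC_011652 was inside with 0.998 CPM and XLOC_025596 outside with 1.01 CPM. At the limit for the adult trials XLOC_017655 was inside with 0.942 CPM and XLOC_023247 outside with 1.10 CPM. The mean in embryo RNA-seq was below 20 CPM for 72 of the selected features and at least 50 CPM for 13, with a median of 19.2 CPM.

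WTTS libraries that the rule did not use gave low levels too. In the female repeats, 5 and 2 of the 138 features reached 1 CPM and none reached 10 CPM, while 94.9% and 96.1% of the 9140 other features with at least 10 CPM in embryo RNA-seq reached 1 CPM. Each of these others had a mean above 1 CPM in embryo WTTS or in trials 6 and 7. Their high shares in further WTTS libraries therefore follow in part from the rule. Adult trials 1 to 5 were made from the RNA pool also used in trials 6 and 7. The 138 were chosen for low levels in trials 6 and 7, so their low levels in trials 1 to 5 follow in part from the rule too. In trials 1 to 5, between 3 and 13 of the 138 features reached 1 CPM, against 68.3% to 95.8% of the other features. A feature reached 10 CPM in only 3 of these libraries, 1 feature in each. XLOC_008521 was at 18.4 CPM in trial 1, XLOC_019546 at 14.5 CPM in trial 3 and XLOC_016799 at 37.8 CPM in trial 5. XLOC_009406 was highest at 7.02 CPM in trial 3 and XLOC_011355 at 8.49 CPM in trial 4. For each of these 5 features 1 trial stood far above the rest, and the female repeats were at most 0.877 CPM.

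The selected features were short. Their median span, from first to last base with introns included, was 4616 bp (binomial 95% interval of the median 3738 to 5398), against 20695 bp for the other features at the same RNA-seq limit. A span under 3 kb was found for 46 of the 138 (33.3%) and for 2.66% of the other features, and a span of at least 30 kb for 2 (1.45%) and 36.4%. The shortest was XLOC_005141, with 195 bp on scaffold_1402 from 1988 to 2182, plus strand, at 27.4, 28.9, 27.8, 32.6, 37.1 and 42.4 CPM in embryo RNA-seq, ordered by stage with family 1 before family 2. The longest was XLOC_011507, with 75113 bp, which had a mean of 10.1 CPM. RNA-seq reads grow with transcript length, and exon lengths are not in the table. Changes between stages are compared within a feature, but the limit of 10 CPM and rankings by level were not corrected for length. The selected features also had lower levels. On scaffolds with over 100 features their median level in embryo RNA-seq was 18.9 CPM, against 57.7 CPM for the others. On scaffolds with at most 10 features the medians were 20.1 and 45.1 CPM. Comparisons of span and position with the others were not matched for level.

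They also lay on small scaffolds far more often than the other features. Of the 138, 39 (28.3%) were the only feature on their scaffold, against 1.62% of the other features with at least 10 CPM. Another 34 (24.6% against 3.86%) lay on scaffolds with 2 to 10 features and 10 (7.25% against 3.01%) on scaffolds with 11 to 100. The large scaffolds with over 100 features held 55 (39.9%) of the selected features and 91.5% of the others. These are counts of features, which are not replicates, so no test is given.

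Short span and small scaffold each went with a higher share of selected features. Among features under 3 kb, 17 of 59 that were alone on their scaffold were selected (28.8%, exact 95% interval 17.8 to 42.1), and 15 of 163 on scaffolds with over 100 features (9.20%, 5.24 to 14.7). Among features of 3 to 10 kb the shares were 20 of 95 (21.1%, 13.4 to 30.6) and 23 of 1614 (1.43%, 0.905 to 2.13). Among 3175 features over 30 kb on the large scaffolds none was selected. Under 3 kb and at 3 to 10 kb the share was higher on the single-feature than on the large scaffolds. The difference in share was thus present at a like span, although span was matched only by these classes. RNA-seq level was not matched, and the difference was not tested. The intervals treat features as independent.

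**Figure D2:**
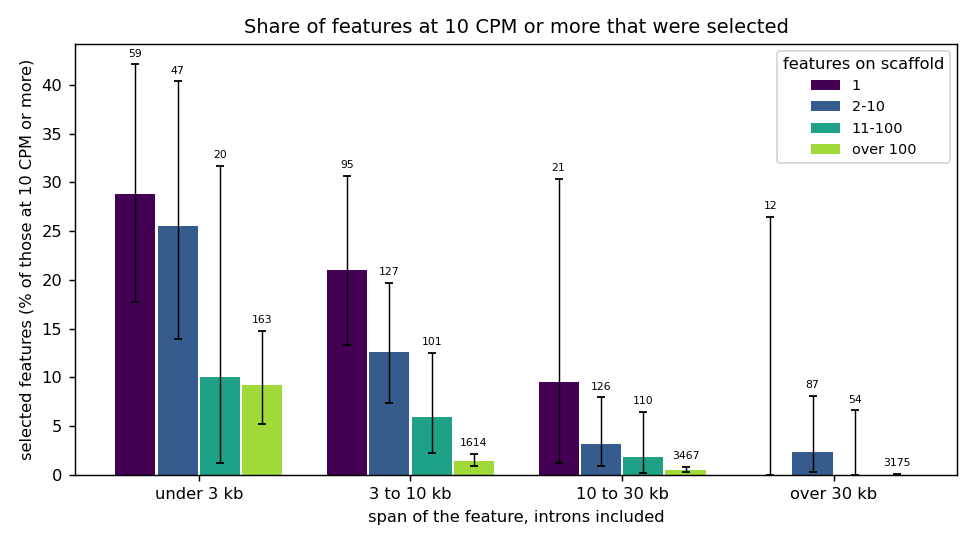
Bars give the percentage of features with at least 10 CPM in embryo RNA-seq that were selected, by span (x axis) and by the number of features on the scaffold (colour), with exact binomial 95% intervals and the number of features above each bar. The share falls from 28.8% for features under 3 kb that are alone on their scaffold to 0 of 3175 for features over 30 kb on scaffolds with over 100 features.

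Many of the selected features were the outermost ones of their scaffold. The first or last feature of a scaffold made up 71 of the 138 (51.4%, exact 95% interval 42.8 to 60.0) and 4.40% of the other features, with features alone on a scaffold counted as both. Among scaffolds with more than 1 feature, 32 of 99 selected features (32.3%) and 2.82% of the others were first or last. On these scaffolds 20 of the 99 (20.2%) had no further feature on the side of their 3' end and 13 (13.1%) none on the side of their 5' end, against 1.32% and 1.98% of the others. The distance to the first or last feature was at most 100 kb for 85 of the 138 (61.6%) and for 7.28% of the others. The 71 include the 39 features alone on a scaffold, and on a scaffold with 2 features each is generally first or last. These shares therefore follow in part from the small scaffolds described above, and they were not matched for scaffold size. Scaffold lengths are not in the table, so distances run to the outermost feature and not to the end of the sequence.

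At the first base of a scaffold the distance to the sequence end itself is known. Of the 138, 21 (15.2%) began within the first 500 bases of their scaffold, against 0.919% of the other features. Of these 21, 12 were on the minus strand, with the 3' end toward the first base, and 9 on the plus strand, with the 5' end toward it. Among the others that began there, 32 were on the minus and 52 on the plus strand. The minus strand was thus the more frequent among the selected features at the first bases, and the plus strand among the others. With only 21 selected features there, the difference was not tested.

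The nearness to the outermost feature was seen on scaffolds with over 100 features as well. Of the 55 selected features on scaffolds with over 100 features, 14 (25.5%) lay within 1 Mb of the first or last feature, against 2.62% of the 8364 others. XLOC_003592, a feature of 1758 bp on scaffold_1 from 215904636 to 215906393, minus strand, was the last of 3592 features there. XLOC_003590, on the same strand from 215879679 to 215880220, lay 26173 bp before that end. XLOC_025346, on scaffold_8b from 2036976 to 2044883, plus strand, was the last of 115 features. The features of scaffold_8b end there, so few of them can lie over 1 Mb from both outermost ones. The shares within 1 Mb were not matched for the extent of the scaffold.

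The selected features were spread over 92 scaffolds, on most of them 1 to a scaffold. A single selected feature lay on 75 of these scaffolds, and at most 8 on one, scaffold_7, which holds 2310 features. Of the 138, 14 (10.1%, exact 95% interval 5.66 to 16.4) lay within 100 kb of another, in 7 pairs and no larger group. The interval treats features as independent, but the features of a pair count together, so it is too narrow. No share of other features was set beside this one, and whether the selected features cluster was not tested. With trials 6 and 7 each held to 1 CPM, in place of their mean, 128 features remained and 6.25% of them lay within 100 kb of another. XLOC_003592, XLOC_005149, XLOC_009406 and XLOC_022416 are among those left out by that reading. On 55 of the 92 scaffolds every feature with at least 10 CPM in embryo RNA-seq was selected, but most of these scaffolds had only 1 such feature. The exceptions were scaffold_1677, scaffold_707 and scaffold_858, each with 2. The pairs with the shortest extent were on scaffold_1677, scaffold_707 and scaffold_8b, each with both features on 1 strand.

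On scaffold_1677 XLOC_005455 (9246 to 9894) and XLOC_005456 (11015 to 12543), both on the minus strand, were the only features. XLOC_005455 was at 16.9 and 19.8 CPM at stage 6, 16.6 and 15.6 at stage 8 and 20.2 and 14.9 at stage 11, and XLOC_005456 at 13.0 and 12.7, 11.4 and 10.1, and 15.0 and 10.0 CPM. Stage values overlapped in both features, and neither passed the test between stages 8 and 11 (adjusted p = 0.936 and 0.732).

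On scaffold_707 XLOC_022415 (10505 to 11575) and XLOC_022416 (26016 to 27952) were on the plus strand and the only features. XLOC_022415 was at 27.8 and 28.7 CPM at stage 6, 34.4 and 37.3 at stage 8 and 38.1 and 44.2 at stage 11, and XLOC_022416 at 10.1 and 10.7, 12.7 and 13.8, and 14.9 and 17.5 CPM. In CPM by library total, the values of each stage lay above those of the stage before in both features. With the further scaling of libraries used in the test, the log2 changes from stage 8 to 11 were 0.10 and 0.19. Neither passed the test (adjusted p = 0.648 and 0.492). On scaffold_8b, XLOC_025345 (2022766 to 2023383) fell from 16.6 and 21.0 CPM at stage 8 to 11.8 and 11.6 at stage 11, log2 change -0.78 (SE 0.24, adjusted p = 0.0282). XLOC_025346 beside it fell from 61.6 and 64.4 to 25.5 and 29.0 CPM, log2 change -1.31 (SE 0.16, adjusted p = 0.000776). The call of XLOC_025345 was lost under 4 of 11 alternatives.

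WTTS reads on a following feature were looked at too. A feature on the same strand followed within 10 kb downstream of 29 of the 138 (21.0%) and of 24.7% of the others. For 7 of the 138 (5.07%, exact 95% interval 2.06 to 10.2) this downstream feature had at least 10 CPM in embryo WTTS, against 11.5% of the others. On scaffolds with over 100 features, where a neighbour is more often listed, the shares were 7 of 55 (12.7%) and 11.7%. XLOC_018949, for example, was followed after 9350 bp by a feature at 13.4 CPM in WTTS, and XLOC_004041 after 798 bp by one at 1.40 CPM. An overlap with a feature on the other strand was found for 16 (11.6%) of the selected features and 22.6% of the others, and an overlap on the same strand for 4 (2.90%) and 3.27%. No source used here says whether counting used the strand, so reads of overlapping features may not be told apart.

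Between blastula and gastrula, stages 8 and 11, the selected features moved in both directions in RNA-seq, and about as many were left without a call as with one. Of the 138, all of which were tested, 20 rose (14.5%) and 47 fell (34.1%). Over all 19413 features tested, 30.3% were higher and 28.2% lower at stage 11, and among the 9278 with at least 10 CPM in embryo RNA-seq, 18.4% were higher and 48.2% lower. Log2 changes had a median of -0.36 over the 138, -0.53 over the 9278 and 0.06 over all features tested. The mean over the 3 stages was used to choose the features, and the change between stages was not, but a feature high at 1 stage alone could pass the limit of 10 CPM only through that stage. CPM is a share of the library, and in whole embryos fewer cells of a type and less RNA per cell cannot be told apart.

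**Figure D3:**
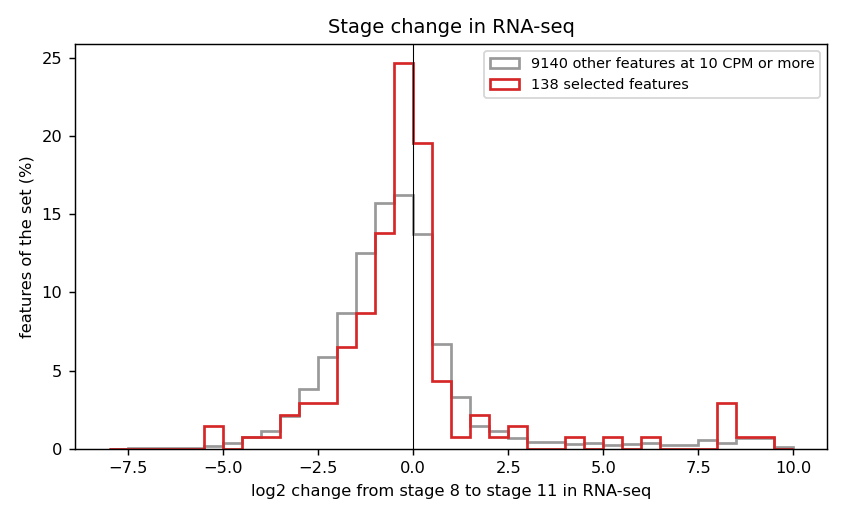
Histogram of the log2 change from stage 8 to stage 11 in RNA-seq (x axis), as the percentage of each set (y axis), for the 138 selected features in red and the 9140 other features with at least 10 CPM in grey. The selected features peak just below 0, with a median of -0.36, and have a separate small group above 8.

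The features that were alone on a scaffold were called least often. Of these 39, 3 rose and 9 fell (7.69% and 23.1%), and 23 (59.0%) had a log2 change smaller than 0.5 in either direction. Among the 148 other features alone on a scaffold, 20.9% rose, 33.8% fell and 39.2% stayed below 0.5. Of the 55 selected features on scaffolds with over 100 features, 11 rose and 27 fell (49.1%), while 18.1% of the 8364 others there rose and 49.8% fell. The difference between scaffold classes was not tested.

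A few selected features went from near 0 to high levels at gastrula. The 20 rising features had a median log2 change of 2.76, and 9 of them rose by at least 3. No share of other features was set beside this count. A feature near 0 at stages 6 and 8 could pass the limit of 10 CPM only through stage 11. The median and the count are therefore not independent of the rule. XLOC_018949, on scaffold_6 from 40356466 to 40360120, minus strand, was at 0.164 and 0.0723 CPM in families 1 and 2 at stage 6, 0.145 and 0.0990 at stage 8 and 101.7 and 68.6 at stage 11. Its log2 change from stage 8 to 11 was 9.33 (SE 0.48, adjusted p = 3.64e-05). Both gastrula libraries stood far above all 4 earlier ones, and the feature had 4 counts in the 10 embryo WTTS libraries together, neurula and tailbud included.

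XLOC_012851, on scaffold_4 from 60126182 to 60127819, plus strand, was at 0.164 and 0.244 CPM at stage 6, 0.160 and 0.677 at stage 8 and 137 and 131 at stage 11. The log2 change was 8.23 (SE 0.69, adjusted p = 0.000177), and family 2 already had the higher value at stage 8. XLOC_012483, on scaffold_4 from 13244240 to 13246397, plus strand, was at 0.139 and 0.117, then 0.191 and 0.107, then 58.0 and 42.3 CPM, log2 change 8.28 (SE 0.43, adjusted p = 3.58e-05). In both features the stage 11 values lay far above all 4 earlier ones, and the values of stages 6 and 8 overlapped.

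XLOC_020146, on scaffold_7 from 5700299 to 5716788, plus strand, was at 0.0900 and 0.0542 CPM at stage 6, 0.0458 and 0.0825 at stage 8 and 24.7 and 45.7 at stage 11 (log2 change 8.98, SE 0.57, adjusted p = 6.65e-05). XLOC_019546, of 900 bp on scaffold_6 from 136316456 to 136317355, minus strand, was at 0.196 and 0.154, 0.0763 and 0.231, and 57.3 and 45.7 CPM (log2 change 8.29, SE 0.58, adjusted p = 9.45e-05). These 5 features, those with the largest rise, all lay on large scaffolds with at least 1960 features, and none overlapped another feature. Being near 0 before, they passed the limit of 10 CPM through stage 11 alone. The size of their rise is therefore not independent of the rule.

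XLOC_015416, among the 10 features with the highest RNA-seq mean, was present at low level before it rose. On scaffold_497 from 23272 to 27254, minus strand, it was at 2.99 and 3.99 CPM at stage 6, 3.62 and 3.23 at stage 8 and 156 and 176 at stage 11, log2 change 5.50 (SE 0.24, adjusted p = 2.25e-05). It overlapped another feature on its strand. In WTTS it had 26 counts in all embryo libraries. It too passed the limit of 10 CPM through stage 11 alone.

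**Figure D4:**
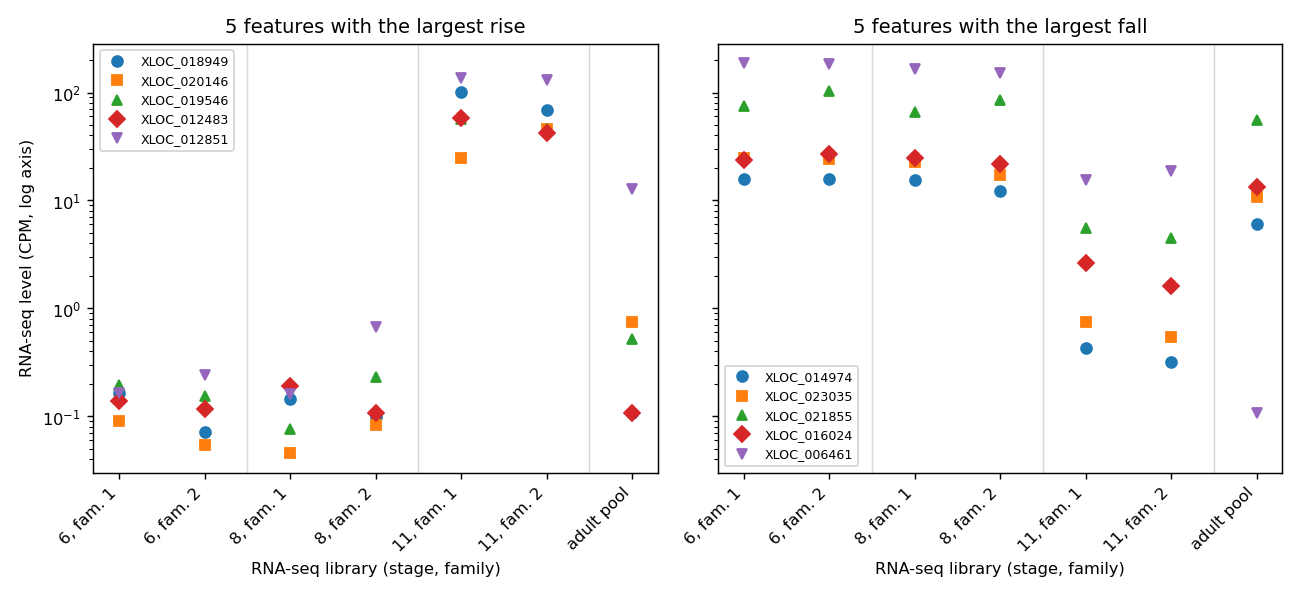
RNA-seq level in CPM on a log axis in each embryo library (stage and family) and in the adult pool, for the 5 selected features with the largest rise (left) and the largest fall (right) from stage 8 to 11. Rising features are below 1 CPM in all 4 libraries of stages 6 and 8 and above 24 CPM at stage 11, and XLOC_006461, which fell to 15.5 and 18.9 CPM, is the lowest of the falling ones in the adult.

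The falling features were present from cleavage onward and dropped at gastrula, with a median log2 change of -1.51 over the 47. Of these, 7 fell by at least 3, and no share of other features was set beside this count. XLOC_014974, on scaffold_417 from 7 to 3108, plus strand, was at 15.9 and 16.0 CPM at stage 6, 15.4 and 12.2 at stage 8 and 0.433 and 0.317 at stage 11, log2 change -5.30 (SE 0.34, adjusted p = 6.71e-05). XLOC_023035, on scaffold_8 from 25046398 to 25057806, plus strand, was at 24.95 and 24.2, then 22.5 and 17.2, then 0.748 and 0.542 CPM, log2 change -5.04 (SE 0.31, adjusted p = 6.28e-05). Both were lower in each gastrula library than in any earlier one, and both passed the limit of 10 CPM through the earlier stages.

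XLOC_006461, on scaffold_2 from 81047271 to 81051888, plus strand, had the second highest mean of the 138, at 186 and 185 CPM at stage 6, 165 and 152 at stage 8 and 15.5 and 18.9 at stage 11. Its log2 change was -3.31 (SE 0.15, adjusted p = 2.41e-05), it had 6 counts in embryo WTTS, and it overlapped a feature on the other strand. XLOC_021855, on scaffold_7 from 70195192 to 70201483, minus strand, went from 74.8 and 102.5 over 66.6 and 84.7 to 5.60 and 4.50 CPM (log2 change -4.00, SE 0.27, adjusted p = 8.73e-05). XLOC_016024, of 1394 bp on scaffold_5 from 86125061 to 86126454, plus strand, went from 23.8 and 27.1 over 24.7 and 21.7 to 2.62 and 1.60 CPM (log2 change -3.56, SE 0.32, adjusted p = 0.000246). All of these falls were seen in both families. XLOC_021855 and XLOC_016024 lay under the RNA-seq limit at stage 11 and passed it through the earlier stages. The size of the fall in these features is therefore not independent of the rule. XLOC_006461 lay above the limit at each stage.

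Among the 10 features with the highest RNA-seq mean, 5 fell, 1 rose and 4 did not pass the test. XLOC_000010, the highest, on scaffold_1 from 498049 to 514702, plus strand, was at 179 and 147 CPM at stage 6, 197 and 197 at stage 8 and 27.7 and 23.5 at stage 11 (log2 change -3.04, SE 0.16, adjusted p = 3.70e-05). XLOC_008521, alone on scaffold_2174 from 22 to 6855, minus strand, went from 156 and 178 over 139.9 and 137 to 16.2 and 14.9 CPM (log2 change -3.25, SE 0.16, adjusted p = 2.90e-05). These falls were larger than those of the next pair.

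XLOC_015151, on scaffold_4428 from 1858 to 2781, minus strand, was at 121 and 131, then 122 and 117, then 81.9 and 84.4 CPM (log2 change -0.63, SE 0.13, adjusted p = 0.00596), with 1 count in all embryo WTTS libraries. XLOC_004041, on scaffold_10 from 34805613 to 34818458, plus strand, was at 128 and 150.3, then 118 and 115, then 69.3 and 76.5 CPM (log2 change -0.78, SE 0.15, adjusted p = 0.00459). Their gastrula values lay below all earlier ones, although the change was small.

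The other 4 of the 10 gave no call. XLOC_010429, on scaffold_3 from 3239630 to 3246603, minus strand, lay between 103 and 123 CPM in all 6 libraries, log2 change 0.10 (SE 0.13, adjusted p = 0.566). XLOC_025061, on scaffold_800 from 22453 to 29618, minus strand, lay between 75.8 and 114 CPM (log2 change -0.07, SE 0.20, adjusted p = 0.803) and overlapped a feature on the other strand. Both of these kept a like level from cleavage to gastrula, with wider spread between families at stage 11 in XLOC_025061.

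XLOC_004669, on scaffold_1056 from 1 to 8440, plus strand, lay between 51.7 and 92.1 CPM (log2 change -0.18, SE 0.21, adjusted p = 0.495). XLOC_009263, alone on scaffold_2854 from 1129 to 6595, plus strand, lay between 41.3 and 72.4 CPM (log2 change -0.47, SE 0.18, adjusted p = 0.0665). Over all 71 selected features that did not pass the test, log2 changes lay between -1.02 and 0.84.

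From stage 6 to stage 8, within the time before gastrulation, no selected feature passed edgeR's test, which called 0% of all 19413 features tested. At an unadjusted p below 0.05 there were 7 of the 138 and 1307 of all features, and DESeq2 called 77 features, of which 0 were among the 138, as did limma-voom with 0 features. Log2 changes of the 138 lay between -0.74 and 0.93, with a median of 0.05.

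The families differed at 1 of the 138 features in RNA-seq with stage accounted for, a feature higher in family 2. Over all features tested, 0.67% were higher and 0.876% lower in family 2, and among those with at least 10 CPM 0.388% and 0.507%. XLOC_005149, on scaffold_1412 from 15 to 5129, minus strand, was at 11.1 CPM in family 1 and 25.9 in family 2 at stage 6, at 17.1 and 34.5 at stage 8 and at 16.5 and 34.0 at stage 11. The log2 difference was 1.11 (SE 0.15, adjusted p = 0.0269), with the error taken from its variation between stages. XLOC_005149 was higher in family 2 at each of the 3 stages, with 1 library per family at each. Its level was 1.005 CPM in adult WTTS trial 6, so it is not selected where each trial is held to 1 CPM. The call was lost in 4 of 13 alternatives, among them without stage 6 and without stage 8. Without both libraries of stage 11 the families differed at 9 of the 138. Calls over all features also rose in that fit, from 300 to 1894. Between families the 138 features had a median absolute log2 difference of 0.23 at stage 6, 0.16 at stage 8 and 0.28 at stage 11.

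In the RNA-seq library of the adult pool, which the rule did not use, most selected features were present and a minority was nearly missing. Of the 138, 98 (71.0%) had at least 10 CPM, 23 had 1 to 10 CPM and 17 (12.3%, exact 95% interval 7.34 to 18.99) had less than 1 CPM. Of the other features with at least 10 CPM in embryos, 90.9% had at least 10 CPM in the adult and 1.28% less than 1 CPM. The selected features were lower in embryos than the others, so shares at a fixed 10 CPM compare sets of unlike level. The median ratio of adult to embryo level was 1.04 for the 138 and 0.74 for the others. The adult level was between 0.5 and 2 times the embryo mean for 72 of the 138 (52.2%) and for 59.5% of the others. The adult is 1 library with no replicate check. The limit on adult WTTS trials can be met by a feature without RNA in the adult, so the share under 1 CPM is not independent of the rule, although the embryo limit alone left 155 features.

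The features nearly missing in the adult included rising ones, falling ones and ones without a call. Of the 17, 7 rose between stages 8 and 11, 5 fell and 5 did not pass the test. Among all 9278 features with at least 10 CPM in embryo RNA-seq, 18.4% rose and 48.2% fell, whatever their adult level. The mix of directions among the 17 was not tested. XLOC_006461, at up to 186 CPM in embryos, had 0.109 CPM in the adult, and XLOC_025061, without a call, had 0.136 CPM. XLOC_018949 and XLOC_012483, which rose at gastrula, had 0.109 CPM each, near their level at stages 6 and 8. XLOC_004881, with 0 counts in every WTTS library, was at 29.2, 23.9, 31.1, 30.1, 32.1 and 38.5 CPM in the embryo RNA-seq libraries in the order given above and at 0.0272 CPM in the adult.

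None of the 39 features alone on a scaffold was below 1 CPM in the adult, while 4 of 34 on scaffolds with 2 to 10 features (11.8%), 2 of 10 on those with 11 to 100 and 11 of 55 on those with over 100 were. Among the other features the shares were 1.35%, 1.98%, 1.82% and 1.23% in the same order of classes. The limit on adult WTTS bears on these shares too, and the difference between classes was not tested. The median ratio of adult to embryo level was 1.64 for the features alone on a scaffold and 0.72 for those on scaffolds with over 100 features. Among the other features of the same scaffold classes the ratios were 1.29 and 0.72.

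The 5 highest adult levels were those of XLOC_022610, XLOC_000010, XLOC_019809, XLOC_015151 and XLOC_010429. XLOC_022610, alone on scaffold_7516 from 1 to 3160, plus strand, was at 233 CPM in the adult and at 4.99 and 10.8, 11.3 and 10.6, and 16.3 and 25.6 CPM at stages 6, 8 and 11. XLOC_019809, alone on scaffold_6296 from 10 to 3747, plus strand, was at 117 CPM in the adult and at 11.7 and 17.4, 21.0 and 17.7, and 21.5 and 31.2 CPM in embryos. Both were several times higher in the adult than in any embryo library, and their changes between stages 8 and 11 did not pass the test (adjusted p = 0.138 and 0.365). XLOC_000010 was at 122 CPM in the adult, XLOC_015151 at 117 and XLOC_010429 at 111, within the range of or close to their levels in embryos.

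**Figure D5:**
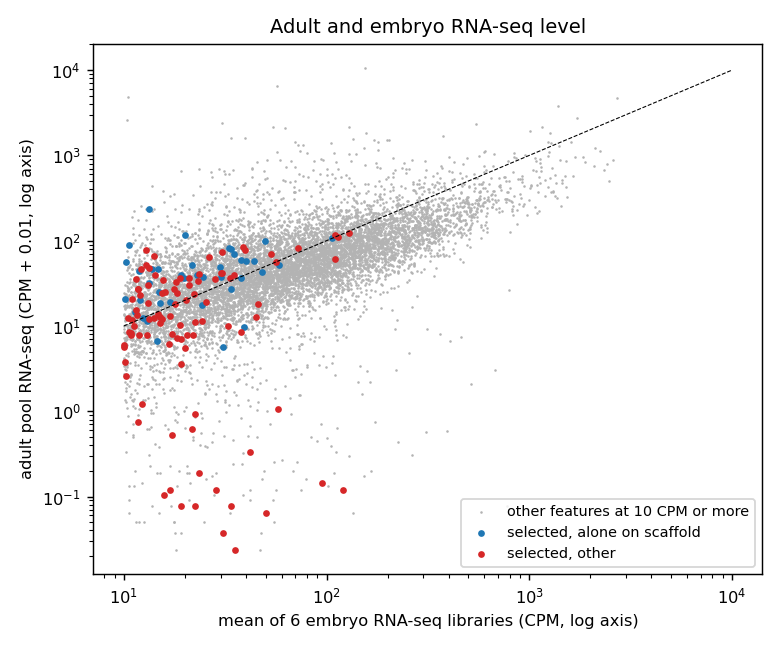
Level in the adult pool RNA-seq library (CPM + 0.01, y axis) against the mean of 6 embryo RNA-seq libraries (CPM, x axis), both on log axes, for selected features alone on their scaffold (blue), other selected features (red) and the other features with at least 10 CPM (grey). The dashed line marks equal levels, and the 17 selected features below 1 CPM in the adult include none that is alone on its scaffold.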

How the data were processed

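The deposited table gives raw whole-number counts per feature from the authors, not normalized, for 26 libraries, read from the values and the file headers. The sources used here do not name an aligner, a counter, an annotation or a build, nor say whether strand was used or positions count from 0 or 1. Per the labels' protocols, RNA was extracted with Trizol, and for WTTS it was fragmented and enriched for poly(A) before cDNA was made, sized and amplified. The reference gene table (assembly UCB_Xtro_10.0) holds 0 of the 27836 identifiers, so no sequence or gene name is printed.

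The selected features and tests were chosen with earlier results of these data known. Levels are counts divided by the library total. Tests used the 6 embryo RNA-seq libraries in one fit with edgeR 4.0.16 in R 4.3.3 (TMM scaling, filterByExpr, quasi-likelihood test). A call is an adjusted p (Benjamini-Hochberg, over all 19413 features) below 0.05. The script was tested on simulated data with 100 features changed at each of 2 sizes, log2 changes of 1 and 2. It called 12% and 64% of them for stages 8 to 11, 22% and 69% for stages 6 to 8 and 31% and 79% for family. A feature without a call is therefore not shown to be unchanged. SE was derived from F and the log2 change. The family test added family to stage. Alternatives were DESeq2 1.42.0 and its size factors, limma-voom (limma 3.58.1), no filter on low counts, family as a block, other limits, and leaving out each library. Replicate pairs differed beyond sampling noise (chi-square per degree of freedom 88.3 to 215). P-values of the stage tests measure the spread between 2 families. Those of the family test measure how far the family difference varied from stage to stage. Each side of the family test was a single family, so its calls describe these 2 families only.

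The families pair the stages, since the labels give the same 2 at each stage. The main stage tests had no term for family and so left this pairing out. With family as a block, calls over all features between stages 8 and 11 were 12282, against 11348 in the main fit. Family differences of 9716 features with at least 8 CPM correlated between stages at 0.584, 0.278 and 0.259.

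Named features were the 10 highest RNA-seq means, up to 5 largest changes per direction with separate groups and a log2 CPM averaging 3 or more, up to 3 per direction by p for the other tests, the 5 highest in adult RNA-seq, the 3 closest groups (ties by shortest extent), the 5 highest in unused WTTS libraries, and those nearest the limits. XLOC_005141, XLOC_003590 and the features with 0 counts in all WTTS libraries were chosen after their values were seen. Python 3.11.15, numpy 2.4.6, pandas 2.3.3 and scipy 1.17.1 were used.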

Additional observations from a re-analysis of the deposited data

Results flagged for a closer look

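Among the 7 adult WTTS trials, 1 trial stood apart for each of 7 values, by a gap to the next trial larger than Dixon's 95% critical value. For normally distributed values, chance alone does this for about 1 in 20 groups. Levels in CPM were not shown to be distributed in this way, so that rate may not hold here. The rule had already held down the mean level of the features in the trials that it used. Those trials were thus kept low before any gap was sought. Also, 5 of the 7 values are features chosen for high levels in these libraries. The gaps are therefore given as a description. The summed level of the 138 features was 72.2 CPM in trial 5 and at most 33.7 CPM in the others. Without XLOC_016799 the sum in trial 5 was 34.4 CPM. The number of the 138 at or above 1 CPM was 13 in trial 5 and at most 7 in the others. XLOC_016799 reached 37.8 CPM in trial 5 against at most 0.956 elsewhere, and XLOC_008521 reached 18.4 CPM in trial 1 against at most 0.589. XLOC_019546 reached 14.5 CPM in trial 3 against at most 4.24, XLOC_009406 reached 7.02 CPM in trial 3 against at most 2.50, and XLOC_011355 reached 8.49 CPM in trial 4 against at most 2.07. Each trial was 1 library of the same RNA pool, so protocol and library cannot be told apart.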

How the results depend on the processing

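The counts of selected features that rose or fell between stages 8 and 11 stayed within 1.5 times of 20 and 47 under every alternative run. Leaving out 1 library gave 15 to 18 rising and 33 to 45 falling features, and 8292 to 11019 calls over all features. Family as a replicate block gave 21 and 51, and changed no call count by over 1.5 times; among the 118 features that overlap no other, an alternative added after seeing the data, the counts were 16 and 40. Between stages 6 and 8, DESeq2 called 77 features, and leaving out 1 library gave 0 throughout.

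The family comparison rested on single libraries and tools. Over all features the main count was 300 and became 476 unfiltered, 1002 by DESeq2, 472 by limma-voom, 0 without stage 6, 73 without stage 8, 1894 without stage 11 and 0 to 1964 without 1 library. Leaving out family 1 or family 2 at stage 6 gave 0 and 1, and at stage 11 it gave 1964 and 1887. Of the 138, 1 was higher and 0 lower in family 2. This became 3 and 2 with DESeq2, and 2 were lower with no filter and with limma-voom. It became 0 higher without stage 6 or stage 8, 6 and 3 without stage 11, and 0 to 6 higher and 0 to 3 lower without 1 library. The cause was not tested.

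The number of selected features was 256 at 5 CPM and 66 at 20 CPM in RNA-seq, 80 and 250 at WTTS limits of 0.5 and 2 CPM, and 136 to 141 without 1 RNA-seq library. Whether the adult limit is meant for the mean of trials 6 and 7 or for each is not settled, and the second reading, added after seeing the data, gave 128 features, of which 6.25% in place of 10.1% lay within 100 kb of another. The median span was 3161 bp and 6124 bp at these WTTS limits. The share of first or last features was 40.8% at 2 CPM, and at 20 CPM in RNA-seq 0% lay within 100 kb of another selected feature.

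Changes of direction between stages 8 and 11 were seen only in named features without a call. XLOC_005455 went from 0.027 to -0.014 unfiltered and lay between -0.25 and 0.24 without 1 library. Without 1 library, XLOC_025061 lay between -0.38 and 0.16, XLOC_004669 between -0.47 and 0.030, XLOC_005149 between -0.74 and 0.43, XLOC_005456 between -0.24 and 0.39, XLOC_022415 between -0.0039 and 0.16 and XLOC_016799 between -0.064 and 0.38. In embryo WTTS, 3 counts are 0.478 to 1.95 CPM in a single library, so a limit of 1 CPM rests on the mean over libraries.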
